A study of Mus musculus with 12 samples.

Results

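The expression of 49 genes of the DNA replication origin and fork was followed through B-cell activation, out of 27179 genes in the count table. The 49 were taken by their mouse Entrez gene identifiers and cover origin licensing (5 genes), the MCM helicase (7), helicase activation (10), the polymerases (9), the sliding clamp and its loaders (8), Okazaki fragment maturation (3), the single-strand binding complex RPA (3) and fork protection (4). All were counted in all 12 RNA-seq libraries, and 48 passed the filters of the DE analysis. Pola1, on the X chromosome (chrX:93304766-93632387, GRCm38), was removed there with all other sex-linked genes and is given from a fit that kept them.

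The libraries were made from B cells of C57BL/6 mice (males aged 6 to 12 weeks, on a C57BL/6 Pep3b background), with 2 replicates at each of 6 stages. Naive B cells came straight from the spleen, sorted as IgM+ IgD-high B220+ cells. The cultured cells were all stimulated with LPS, a bacterial ligand of Toll-like receptor 4, at 25 μg/ml. Cells labelled with a dye that dilutes at each division were sorted as undivided CD69+ cells at 3 h, 10 h and 33 h, the last just before the first division. The day 4 cells came from a separate culture, set up at a lower density and with no dye named, and were sorted as CD22+ CD138- expanded cells or CD22- CD138+ plasmablasts, so that culture and stage cannot be told apart from 33 h to expanded cells. The 33 h cells of these libraries were not gated on cell cycle phase, the day 4 cells had divided, and no allele or transgene is named in the labels of any group. The design asks how the genes changed from one stage to the next and, here in particular, between 10 h and 33 h.

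A chromosome is replicated once in each cycle because loading and firing of origins are kept apart. In G1 the origin recognition complex, with CDC6 and CDT1, loads pairs of MCM2-7 rings onto DNA, and geminin later blocks CDT1. At S phase the kinases CDC7-DBF4 and CDK recruit CDC45 and GINS to the rings, which then unwind DNA ahead of the primase and the polymerases, while the RFC loader places the PCNA ring on primed sites. Quiescent lymphocytes are known for low amounts of several of these factors and rebuild them before their first division.

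Many of these genes are textbook targets of E2F, the factor family that RB restrains in G0 and G1. Promoters of 300 bases, from 250 before to 50 after the start site of each promoter entry, were read for 38 of the 49 genes from RefSeq (GRCm38.p6). The starts below are those of the entries, which need not be the first base of the gene. Dscc1, Mcm4, Recql4, Pole, Gins2, Gins4, Gmnn, Prim2, Tipin, Gins1 and Rfc2 had no entry. The words TTTCCCGC, TTTCGCGC, TTTGCCGC and TTTGGCGC, searched on both strands, were found for 16 of the 38 genes (42.1%), against 2.61% of all 27025 genes with an entry. Counted by promoter, 36.4% of the 44 listed for the 38 genes held a word, against 2.26% of all 32851 of that length. The lines below give the 250 bases before the start of Orc1, Cdc6, Mcm5 and Mcm6, and 28 bases around the match for Cdt1 and Clspn, where it lies just after the start. They are shown because these 6 genes span the licensing factors, the helicase and the member with the largest rise from 10 h to 33 h. Each runs 5′ to 3′ on the strand of the gene, with the matched words in capitals.
Orc1, chr4:108579204-108579453, + strand: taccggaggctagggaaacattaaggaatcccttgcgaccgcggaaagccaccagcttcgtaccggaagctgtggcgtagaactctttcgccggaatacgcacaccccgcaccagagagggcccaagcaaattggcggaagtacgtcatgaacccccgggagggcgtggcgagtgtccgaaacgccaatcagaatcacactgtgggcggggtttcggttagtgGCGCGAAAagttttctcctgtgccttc
Cdc6, chr11:98907901-98908150, + strand: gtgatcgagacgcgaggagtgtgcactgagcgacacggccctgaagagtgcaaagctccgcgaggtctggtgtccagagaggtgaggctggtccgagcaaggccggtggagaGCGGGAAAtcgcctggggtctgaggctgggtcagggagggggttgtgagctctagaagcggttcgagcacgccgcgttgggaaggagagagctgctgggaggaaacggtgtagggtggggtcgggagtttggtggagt
Mcm5, chr8:75109259-75109508, + strand: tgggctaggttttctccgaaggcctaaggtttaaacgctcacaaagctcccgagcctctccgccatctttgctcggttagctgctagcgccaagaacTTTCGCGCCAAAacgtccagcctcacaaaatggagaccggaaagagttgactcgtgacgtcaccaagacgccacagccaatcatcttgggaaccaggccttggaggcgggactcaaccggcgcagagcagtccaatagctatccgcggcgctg
Mcm6, chr1:128359706-128359955, - strand: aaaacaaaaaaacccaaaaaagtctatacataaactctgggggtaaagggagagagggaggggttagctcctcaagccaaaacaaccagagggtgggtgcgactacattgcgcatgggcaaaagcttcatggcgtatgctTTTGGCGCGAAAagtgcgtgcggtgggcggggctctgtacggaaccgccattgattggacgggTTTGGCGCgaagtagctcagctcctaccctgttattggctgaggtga
Cdt1, chr8:122568037-122568064, + strand: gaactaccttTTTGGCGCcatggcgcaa
Clspn, chr4:126556991-126557018, + strand: ccgcgtctggGCGCGAAAgctcgaactt

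The match began 27 bases before the entry start in Orc1 and 138 bases before it in Cdc6. The sequences shown for these 2 genes lie inside the gene spans, which begin at chr4:108575705 and chr11:98907709. The entry starts of Mcm5 and Clspn also lie inside their spans, which begin at chr8:75109468 and chr4:126556957. Mcm5 held overlapping words on opposite strands, at 153 and 149 bases before the start, and Mcm6 held an overlapping pair at 110 and 106 bases and a single word at 47 bases. In Cdt1 and Clspn the word began 32 and 21 bases after the start. The other 10 genes with a word were Mcm3, Mcm7, Mcm8, Gins3, Pola1, Pold1, Pold3, Pole2, Rfc3 and Lig1. A CCAAT box was held by 54.5% of the 44 promoters and by 37.4% of all, and the word TTTGAA by 18.2% and 17.9% on both strands, with overlaps between the kinds of word not removed. These matches describe letters and not bound sites. The median log2 fold change from 10 h to 33 h was 1.61 for the 15 tested genes with an E2F word, 1.47 for the 22 without and 2.24 for the 11 with no promoter entry.

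Library depth ran from 23026619 to 60585587 assigned reads, and the lowest count of any of the 49 genes in any library was 10, for Dna2 at 3 h. The SD of the log2 ratio between replicates over genes lay between 0.40 in expanded cells and 0.65 at 3 h. Levels below are RPKM (reads scaled to gene length in kilobases and to TMM-scaled library size) in replicate 1 and then replicate 2. Changes are log2 fold changes ± SE from edgeR, called DE where glmTreat placed them beyond 1.5-fold at a Benjamini-Hochberg adjusted p of 0.05 over all 12767 tested genes. The B-cell markers Cd79a, Cd79b, Ms4a1 and Cd22 were present throughout, with a summed level of 8523 and 8282 CPM in naive cells and 1813 and 1755 CPM in plasmablasts. The 4 plasmablast markers summed to at most 377 CPM up to 33 h and to 1536 and 1811 CPM in expanded cells. They rose to 16081 and 15421 CPM in plasmablasts. Markers of erythroid cells summed to 196 and 146 CPM in the naive libraries and to at most 2.11 CPM in the others, and myeloid markers to 276 and 122 CPM in the naive libraries and at most 37.5 CPM elsewhere. T-cell markers summed to 67.9 and 71.7 CPM in the naive libraries and at most 40.3 CPM elsewhere. The part of these cells in any change out of the naive stage was not tested. In bulk libraries a smaller share of cells that express a gene and less of its RNA per cell cannot be told apart.

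The 33 h stage, with division imminent, stood above every other. The summed level of the 49 genes was 801 and 809.8 RPKM in naive cells, 926 and 937 after 3 h, and 1384 and 1170.0 after 10 h. At 33 h it was 3680.3 and 3944, followed by 2909 and 2874 in expanded cells and 2379 and 2376 in plasmablasts. The mean was highest at 33 h for 42 of the 49 genes, and for 37 both 33 h libraries lay above all 10 other libraries. The share of all tested genes set apart in these ways was not counted. The exceptions by mean were Cdc6, Dbf4, Dna2 and Rpa3 (highest in expanded cells), Fen1 and Rpa2 (plasmablasts) and Cdt1 (3 h). Lowest means fell at 3 h for 27 genes, in naive cells for 19, in plasmablasts for Pold1 and Pold3 and at 10 h for Cdt1.

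**Figure D1:**
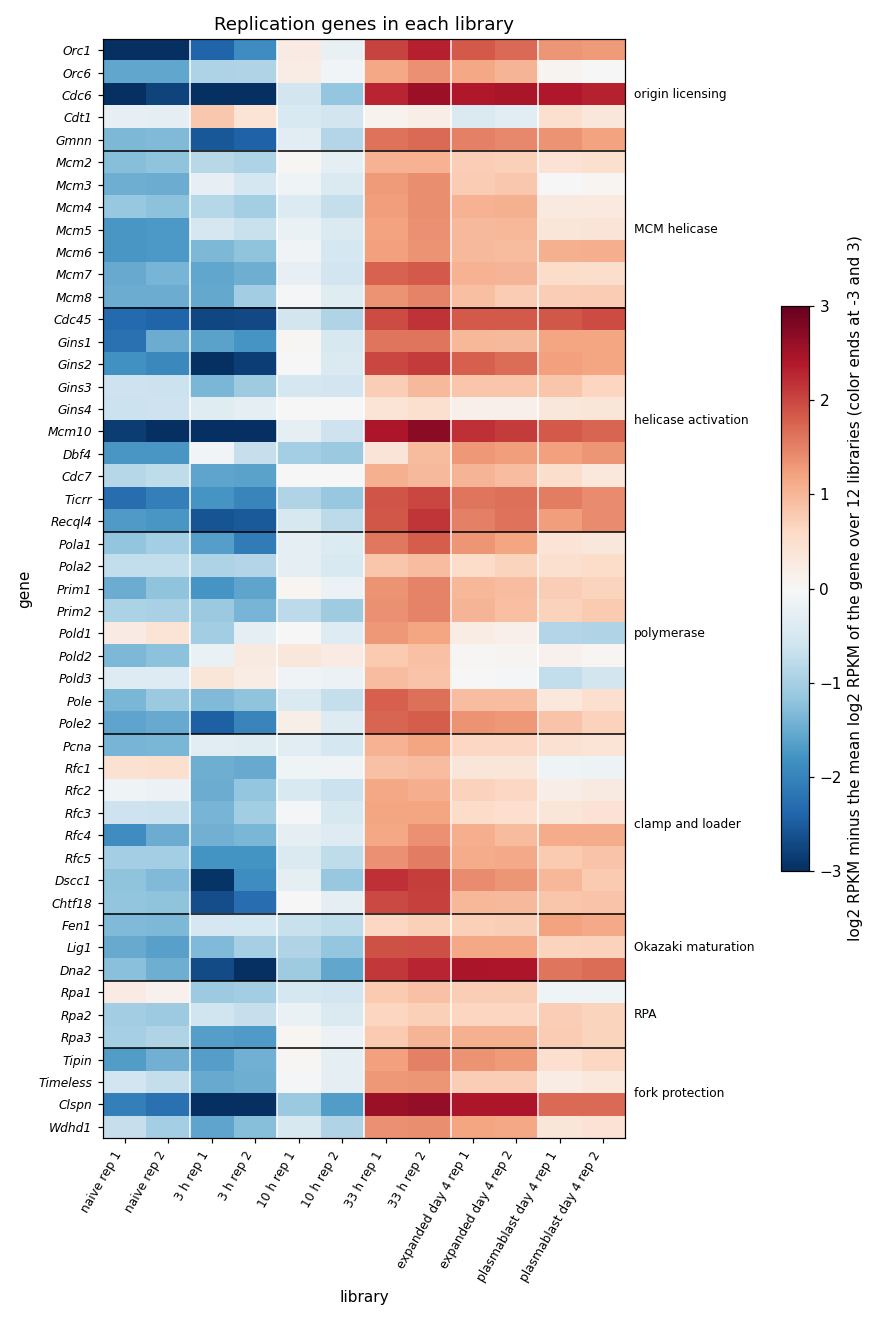
Level of each of the 49 genes (rows, by functional group) in each of the 12 libraries (columns), as log2 RPKM minus the gene's mean over the libraries, with colors ending at -3 and 3. The 33 h columns are the reddest for most rows, the 3 h columns hold the lowest mean for 27 genes, and the Cdt1 row has its highest mean there.

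Between 10 h and 33 h, 45 of the 48 tested genes were DE upwards, against 10.1% of all tested genes. None was DE downwards (4.45% of all genes), by edgeR or DESeq2. All 48 fitted changes were positive, so none could fall at an unadjusted p of 0.05 either. The median change was 1.61, with a range of 0.45 to 3.97, while the median of all tested genes was -0.02. Both 33 h libraries lay above both 10 h libraries for all 49 genes, with the share over all tested genes not counted. The 3 genes that were not DE were Cdt1, Gins4 and Pold2. Of the 45 calls, 44 held without any one library and under every alternative processing, and Rpa3 was the exception. With no fold threshold all 48 rose (23.3% of all genes). By group, the median change was 2.95 for Okazaki maturation, 2.15 for licensing, 2.03 for helicase activation, 1.78 for fork protection, 1.63 for clamp and loader, 1.61 for the MCM genes, 1.45 for the polymerases and 0.98 for RPA. The groups overlapped widely, and no test between groups of genes was made.

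**Figure D2:**
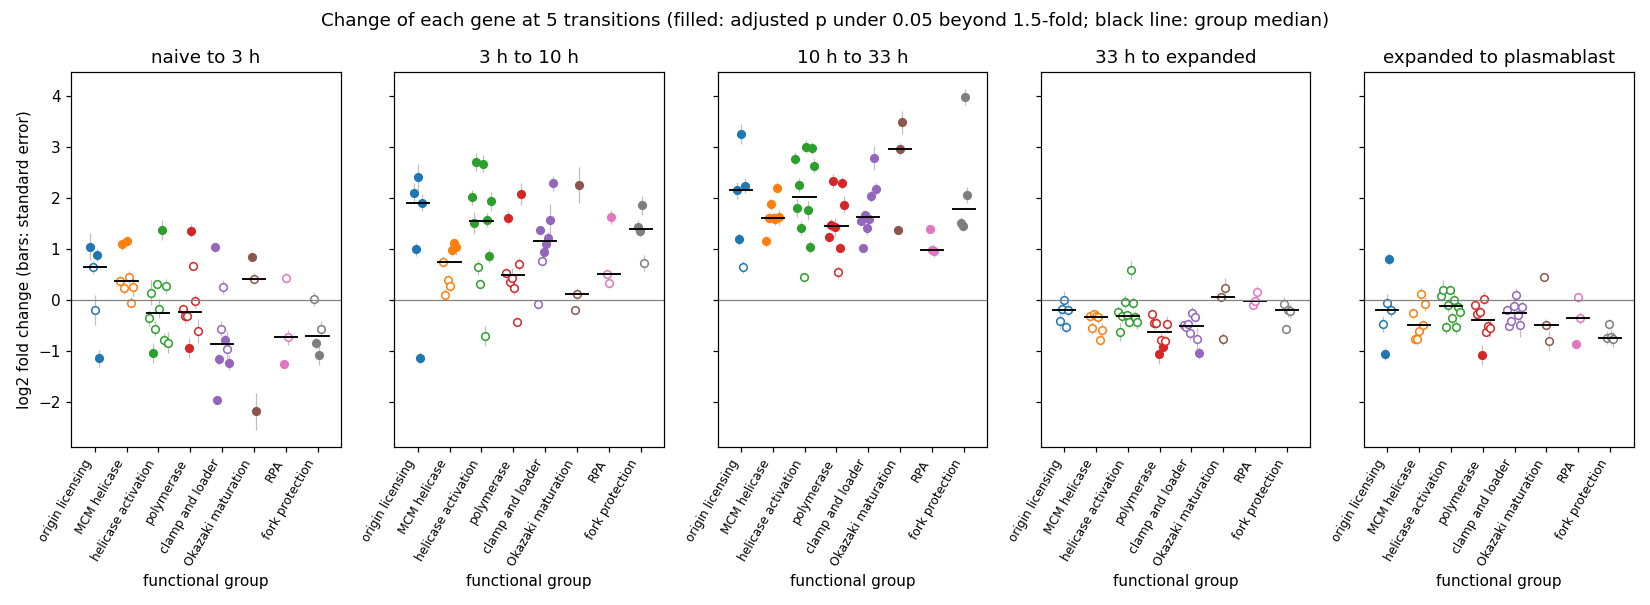
Log2 fold change of each tested gene at 5 transitions, by functional group, with standard errors as bars, group medians as black lines and filled points for DE genes. The 10 h to 33 h panel holds 45 filled points, all above 0, and the 33 h to expanded panel holds 3, all below 0.

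Among the licensing genes, Cdt1 did not follow the others. Orc1, the regulated subunit of the origin recognition complex, was at 0.460 and 0.424 in naive cells, 0.722 and 1.06 after 3 h, and 4.51 and 3.28 after 10 h. Orc1 then stood at 15.5 and 19.1 at 33 h, 13.7 and 12.4 in expanded cells and 9.51 and 9.35 in plasmablasts. Its level was at most 1.06 RPKM up to 3 h and highest at 33 h, with no overlap between 10 h and 33 h. The change from 10 h to 33 h was 2.15 ± 0.17 (adjusted p = 2.59e-06), after 2.09 ± 0.20 (adjusted p = 1.48e-05) from 3 h to 10 h. The rise of Orc1 from naive to 3 h, 1.04 ± 0.26 (adjusted p = 0.0353), rested on 47 and 33 reads against 39 and 97, and was lost without either naive library, without the second 3 h library (0.67, adjusted p = 0.361), without either plasmablast library, and by DESeq2 and 4 other alternatives.

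Orc6, the small subunit of the complex, was at 6.78 and 6.77 in naive cells, 10.5 and 10.6 after 3 h, and 23.3 and 18.7 after 10 h. Orc6 then stood at 44.6 and 51.8 at 33 h, 44.7 and 40.4 in expanded cells and 21.0 and 19.8 in plasmablasts. Its change from 3 h to 10 h was 0.99 ± 0.12 (adjusted p = 0.00327). That call was lost without the first 10 h library (0.82, adjusted p = 0.0566) and with DESeq2 (adjusted p = 0.0928). The change from 10 h to 33 h was 1.20 ± 0.12 (adjusted p = 0.00028). It then fell from expanded cells to plasmablasts by 1.06 on the log2 scale, ± 0.12 (adjusted p = 0.00104), and both plasmablast libraries lay below both expanded ones.

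Cdc6, the ATPase that loads MCM with CDT1, was at 0.446 and 0.643 in naive cells, 0.356 and 0.545 after 3 h, and 2.98 and 1.96 after 10 h. Cdc6 then stood at 21.4 and 25.8 at 33 h, 23.3 and 24.1 in expanded cells and 23.4 and 21.9 in plasmablasts. Libraries of the naive and 3 h stages overlapped, and so did those of 33 h, expanded cells and plasmablasts. Its change was 2.41 ± 0.25 (adjusted p = 2.72e-05) from 3 h to 10 h and 3.25 ± 0.20 (adjusted p = 2.27e-07) from 10 h to 33 h, the largest of the licensing genes at that step. From naive cells to plasmablasts it was 5.40 ± 0.24, the largest of all 48 genes.

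Cdt1, the partner of CDC6 in MCM loading, was at 36.5 and 35.1 in naive cells, 75.4 and 57.4 after 3 h, and 31.2 and 29.3 after 10 h. Cdt1 then stood at 46.1 and 49.2 at 33 h, 32.1 and 33.8 in expanded cells and 60.6 and 54.9 in plasmablasts. Its mean was highest at 3 h, where the libraries overlapped those of plasmablasts, and lowest at 10 h, below all others. It rose from naive to 3 h (0.89 ± 0.12, adjusted p = 0.00674), fell by 1.13 ± 0.12 from 3 h to 10 h (adjusted p = 0.0003), and was not DE from 10 h to 33 h (0.66 ± 0.12, adjusted p = 0.431), though the libraries did not overlap. It was the only one of the 48 genes that was DE downwards from 3 h to 10 h, and the only one DE upwards from expanded cells to plasmablasts (0.81 ± 0.12, adjusted p = 0.0405). The first rise was lost without the first 3 h library (0.69, adjusted p = 0.11), with DESeq2 (adjusted p = 0.0734) and on library size alone (adjusted p = 0.153). The last was lost without any one of 7 libraries (adjusted p from 0.0512 to 0.157) and under 3 other alternatives.

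Gmnn, which encodes geminin, the inhibitor of CDT1, was at 9.40 and 9.48 in naive cells, 4.11 and 4.40 after 3 h, and 18.8 and 13.0 after 10 h. Gmnn then stood at 73.1 and 77.8 at 33 h, 68.0 and 64.9 in expanded cells and 61.2 and 55.5 in plasmablasts. It fell by 1.14 ± 0.17 from naive to 3 h (adjusted p = 0.0023) and then rose by 1.90 ± 0.17 (adjusted p = 8.21e-06) and 2.24 ± 0.14 (adjusted p = 3.51e-07). The ratio of Cdt1 to Gmnn RPKM was 3.89 and 3.70 in naive cells, 18.4 and 13.0 after 3 h, and 1.66 and 2.24 after 10 h. At 33 h it was 0.630 and 0.632, followed by 0.472 and 0.522 in expanded cells and 0.991 and 0.990 in plasmablasts. By RPKM, Cdt1 lay above Gmnn up to 10 h and below it at 33 h and in expanded cells. In plasmablasts the 2 were nearly equal in RPKM. Levels of different genes were not calibrated against each other, so only the change of the ratio between stages is read.

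**Figure D3:**
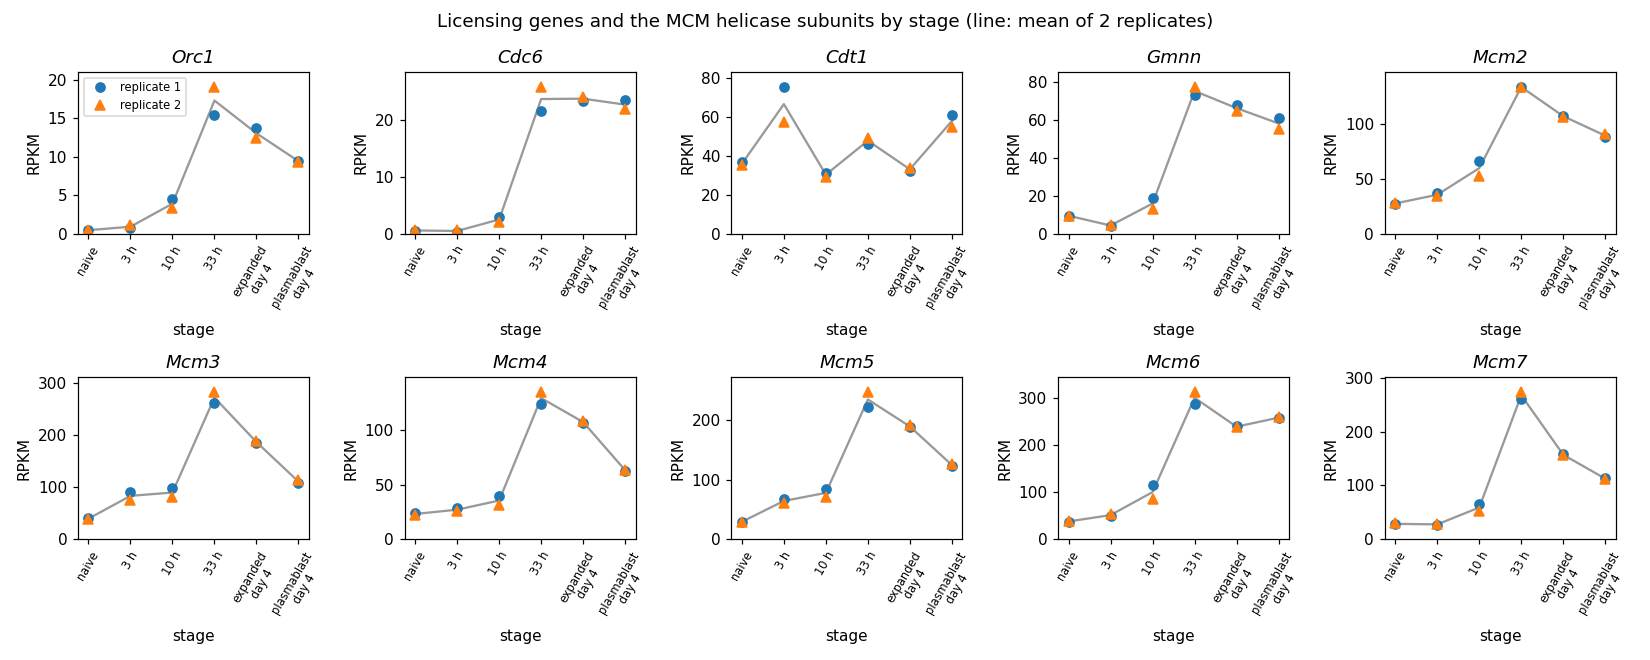
RPKM of Orc1, Cdc6, Cdt1, Gmnn and Mcm2 to Mcm7 at the 6 stages, with a point for each replicate and a line through the means. Cdt1 peaks at 3 h at 75.4 and 57.4 RPKM, and the other 9 genes climb between 10 h and 33 h.

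The MCM2-7 subunits form a hexamer, and their RNAs rose together from 10 h to 33 h, with all 7 MCM genes DE. Their timing before 10 h differed. Mcm2 was at 27.0 and 28.1 in naive cells, 36.8 and 34.4 after 3 h, and 66.7 and 53.2 after 10 h. Mcm2 then stood at 134 and 135 at 33 h, 108 and 107 in expanded cells and 88.5 and 90.9 in plasmablasts. Both 10 h libraries of Mcm2 lay above those of 3 h, and it had no DE call up to 10 h. Mcm3 was at 39.3 and 38.4 in naive cells, 90.4 and 75.1 after 3 h, and 98.5 and 79.8 after 10 h. Mcm3 then stood at 261 and 283 at 33 h, 184 and 189 in expanded cells and 108 and 113 in plasmablasts. Its 3 h libraries overlapped those of 10 h and were clear of the naive ones. Mcm5, another of the early risers, stood at 28.4 and 29.0 in naive cells, 67.7 and 60.1 after 3 h, and 84.0 and 71.1 after 10 h. Mcm5 then stood at 222 and 248 at 33 h, 188 and 191 in expanded cells and 124 and 126 in plasmablasts. Mcm3 and Mcm5 were DE upwards within 3 h (1.09 ± 0.11, adjusted p = 0.000197 and 1.15 ± 0.10, adjusted p = 2.53e-05) and then changed little to 10 h (0.11 ± 0.11, adjusted p = 1 and 0.28 ± 0.10, adjusted p = 1).

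Mcm6 and Mcm7 first became DE from 3 h to 10 h. Mcm6 was at 36.7 and 37.3 in naive cells, 48.4 and 52.9 after 3 h, and 115 and 84.8 after 10 h. Mcm6 then stood at 289 and 314 at 33 h, 241 and 238 in expanded cells and 258 and 260.1 in plasmablasts. Its change of 0.98 ± 0.12 to 10 h was lost without the first 10 h library (0.74, adjusted p = 0.0769) and with DESeq2 (adjusted p = 0.0715). Even so, both 10 h libraries of Mcm6 lay above both 3 h ones. Mcm7 was at 26.8 and 29.2 in naive cells, 26.3 and 27.7 after 3 h, and 65.5 and 51.6 after 10 h. Mcm7 then stood at 262 and 275 at 33 h, 158 and 156 in expanded cells and 114 and 112 in plasmablasts. Its naive and 3 h libraries overlapped. Its change to 10 h was 1.12 ± 0.10 (adjusted p = 0.000163). Mcm2 (0.75 ± 0.10, adjusted p = 0.0517) and Mcm4 (0.40 ± 0.10, adjusted p = 1) were not DE at that step. Mcm4 stood at 23.6 and 22.1 in naive cells, 28.3 and 25.4 after 3 h, and 39.0 and 31.5 after 10 h. Mcm4 then stood at 124 and 135 at 33 h, 107 and 108 in expanded cells and 62.7 and 63.6 in plasmablasts. Of its libraries, those of 33 h were the highest and those of naive cells the lowest.

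From 10 h to 33 h the smallest change of the group was that of Mcm2 (1.16 ± 0.10, adjusted p = 0.000101) and the largest that of Mcm7 (2.20 ± 0.11, adjusted p = 2.7e-08). Mcm3, Mcm4, Mcm5 and Mcm6 changed by 1.61, 1.88, 1.60 and 1.59. Mcm8, which forms a separate helicase with MCM9 in recombination, was far lower, at most 12.4 RPKM, and changed by 1.62 ± 0.15 (adjusted p = 2.84e-05). The ratio of the highest to the lowest mean RPKM among Mcm2 to Mcm7 was 1.70 in naive cells, 3.08 after 3 h and 2.83 after 10 h. It was 2.33 at 33 h, then 2.23 in expanded cells and 4.10 in plasmablasts. By mean, Mcm4 was the lowest subunit at every stage, and Mcm6 the highest from 10 h on. In plasmablasts Mcm6 was still at 85.9% of its 33 h mean, while the median of the MCM group was 53.0%.

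Genes of helicase activation were DE upwards from 10 h to 33 h in 9 of 10 cases. Cdc45, a subunit of the active CMG helicase, was at 2.38 and 2.26 in naive cells, 1.80 and 1.84 after 3 h, and 8.23 and 6.44 after 10 h. Cdc45 then stood at 46.6 and 53.5 at 33 h, 42.8 and 42.7 in expanded cells and 43.9 and 46.8 in plasmablasts. Its level was below 3 RPKM up to 3 h, and it changed by 2.01 ± 0.14 (adjusted p = 1.21e-06) and then by 2.77 ± 0.12 (adjusted p = 7.83e-09). Mcm10, which the helicase needs to start unwinding, was at 1.02 and 0.888 in naive cells, 0.910 and 0.818 after 3 h, and 6.08 and 4.77 after 10 h. Mcm10 then stood at 39.3 and 47.9 at 33 h, 33.5 and 31.5 in expanded cells and 26.3 and 24.6 in plasmablasts. The change of Mcm10 was the largest of the group from 10 h to 33 h (3.00 ± 0.13, adjusted p = 7.99e-09), and that from 3 h to 10 h was 2.66 ± 0.16.

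The GINS tetramer had subunits of unlike behaviour. Gins4 was at 21.9 and 22.3 in naive cells, 26.4 and 28.1 after 3 h, and 33.8 and 34.4 after 10 h. Gins4 then stood at 45.2 and 47.9 at 33 h, 37.9 and 37.8 in expanded cells and 42.8 and 44.2 in plasmablasts. It climbed slowly, with no DE call at any step from naive cells to 33 h (0.45 ± 0.09, adjusted p = 1 from 10 h to 33 h). Gins2 was at 3.67 and 3.36 in naive cells, 1.61 and 1.80 after 3 h, and 12.9 and 9.60 after 10 h. Gins2 then stood at 52.0 and 55.4 at 33 h, 44.6 and 41.4 in expanded cells and 30.1 and 29.3 in plasmablasts. It fell by 1.03 ± 0.19 from naive to 3 h (adjusted p = 0.0131), a call lost without the first naive library (adjusted p = 0.0549) and with DESeq2 (adjusted p = 0.126), and then rose by 2.71 ± 0.17 (adjusted p = 2.85e-07), the largest rise of all 48 genes from 3 h to 10 h. Exons of Gins2 share 70.7% of their bases with Gse1 on the opposite strand, and the counting was not stated to use strand, so reads from these overlapping exons cannot be told apart. Orc2, Orc1 and Mcm7 share 24.0%, 11.9% and 10.8% of theirs with Nif3l1, Gm12743 and Ap4m1 on the opposite strand. Gins1 and Gins3 changed by 1.80 ± 0.18 (adjusted p = 6.39e-05) and 1.41 ± 0.13 (adjusted p = 7.57e-05) from 10 h to 33 h. The ratio of the highest to the lowest GINS subunit was 7.77 in naive cells, 16.0 after 3 h, 10.5 after 10 h and 6.21 at 33 h.

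Dbf4 and Cdc7 encode the regulatory and catalytic parts of the kinase that acts on MCM. Dbf4 was at 5.64 and 5.66 in naive cells, 17.8 and 11.7 after 3 h, and 9.34 and 8.72 after 10 h. Dbf4 then stood at 24.9 and 36.3 at 33 h, 46.4 and 45.2 in expanded cells and 44.3 and 47.1 in plasmablasts. It rose within 3 h (1.38 ± 0.20, adjusted p = 0.000717, the largest rise of the 48 genes at that step), changed by -0.70 ± 0.19 (adjusted p = 0.263) to 10 h, where both libraries were below both of 3 h, and rose by 1.76 ± 0.19 (adjusted p = 0.000155) to 33 h. Cdc7 went from at most 1.21 RPKM at 3 h to 7.57 and 7.10 at 33 h, with changes of 1.57 ± 0.14 (adjusted p = 1.4e-05) and 1.04 ± 0.12 (adjusted p = 0.00267). The initiation factors Ticrr (treslin) and Recql4 stayed under 2 RPKM up to 10 h and changed by 2.97 ± 0.12 (adjusted p = 4.24e-09) and 2.63 ± 0.14 (adjusted p = 6.61e-08) to 33 h.

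Of the 8 polymerase genes tested, 7 were DE upwards from 10 h to 33 h, but only Prim1 and Pole2 from 3 h to 10 h. Pola1, the catalytic subunit of polymerase alpha, was at 3.79 and 4.20 in naive cells, 2.72 and 1.99 after 3 h, and 7.12 and 6.45 after 10 h. Pola1 then stood at 25.5 and 30.1 at 33 h, 21.5 and 19.3 in expanded cells and 11.4 and 10.8 in plasmablasts. In the fit that kept X-linked genes it changed by 1.57 ± 0.14 from 3 h to 10 h (adjusted p = 1.96e-05) and by 2.01 ± 0.13 from 10 h to 33 h (adjusted p = 8.87e-07). Its accessory subunit Pola2 changed by 1.23 ± 0.09 (adjusted p = 2.22e-05) at the latter step. Prim2, the large primase subunit, was at 7.70 and 7.58 in naive cells, 6.88 and 5.60 after 3 h, and 8.63 and 7.07 after 10 h. Prim2 then stood at 38.1 and 41.2 at 33 h, 30.1 and 27.8 in expanded cells and 23.8 and 25.4 in plasmablasts. It had the largest change of the group to 33 h (2.33 ± 0.12, adjusted p = 6.61e-08). Prim1, the small subunit, changed by 1.61 ± 0.13 (adjusted p = 5.11e-06) to 10 h and by 1.48 ± 0.12 (adjusted p = 1.11e-05) to 33 h.

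Polymerase delta, which extends the lagging strand, had subunits that moved apart. Pold1, its catalytic subunit, was at 51.5 and 57.8 in naive cells, 21.2 and 35.6 after 3 h, and 43.8 and 33.4 after 10 h. Pold1 then stood at 107 and 99.7 at 33 h, 51.0 and 48.3 in expanded cells and 23.7 and 23.3 in plasmablasts. It was lower in plasmablasts than in naive cells, by 1.22 ± 0.20 on the log2 scale (adjusted p = 0.00227), and was the only one of the 48 genes DE downwards in that comparison. It fell at 3 h (-0.94 ± 0.20, adjusted p = 0.0316), rose to 33 h (1.42 ± 0.19, adjusted p = 0.0019), and fell again to expanded cells (-1.06 ± 0.19, adjusted p = 0.0389) and to plasmablasts (-1.08 ± 0.20, adjusted p = 0.0155). Each of these 3 falls was lost with DESeq2 (adjusted p = 0.144, 0.225 and 0.0861). Each was also lost when single libraries were left out, as at 3 h without its first library (-0.61, adjusted p = 0.349).

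Pold2, the second subunit, was at 33.4 and 36.2 in naive cells, 74.7 and 103 after 3 h, and 108 and 101 after 10 h. Pold2 then stood at 147 and 157 at 33 h, 88.4 and 90.0 in expanded cells and 93.4 and 88.6 in plasmablasts. It rose within 3 h (1.36 ± 0.13, adjusted p = 1.78e-05) and was not DE from 10 h to 33 h (0.54 ± 0.12, adjusted p = 0.965). Pold3 was at 18.4 and 18.5 in naive cells, 30.9 and 28.0 after 3 h, and 22.6 and 21.3 after 10 h. Pold3 then stood at 45.4 and 43.8 at 33 h, 24.1 and 23.4 in expanded cells and 14.5 and 16.5 in plasmablasts. It changed by -0.42 ± 0.09 (adjusted p = 1) to 10 h, 1.02 ± 0.09 (adjusted p = 0.000515) to 33 h and -0.91 ± 0.09 (adjusted p = 0.00526) to expanded cells. In the leading strand enzyme, the catalytic subunit Pole changed by 2.29 ± 0.12 (adjusted p = 6.52e-08) and Pole2 by 1.86 ± 0.17 (adjusted p = 1.74e-05) from 10 h to 33 h, while its histone-fold subunits Pole3 (0.03 ± 0.09, adjusted p = 1) and Pole4 (-0.43 ± 0.10, adjusted p = 1), which are outside the 49, were not DE. Exons of Pole2 share 14.4% of their bases with Gm49384 on the same strand.

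All 8 clamp and loader genes were DE upwards from 10 h to 33 h. Pcna, the sliding clamp, was at 48.2 and 49.3 in naive cells, 101 and 98.3 after 3 h, and 99.3 and 88.3 after 10 h. Pcna then stood at 261 and 286 at 33 h, 194 and 195 in expanded cells and 173 and 169 in plasmablasts. It rose within 3 h (1.03 ± 0.09, adjusted p = 6.66e-05), changed by -0.09 ± 0.08 (adjusted p = 1) to 10 h and rose by 1.54 ± 0.08 (adjusted p = 3.5e-07) to 33 h. Rfc1, the large subunit of its loader, was at 31.9 and 32.0 in naive cells, 8.32 and 8.09 after 3 h, and 21.2 and 21.3 after 10 h. Rfc1 then stood at 42.2 and 43.6 at 33 h, 29.8 and 29.8 in expanded cells and 21.2 and 20.9 in plasmablasts. Rfc1 fell by 1.96 ± 0.08 from naive to 3 h (adjusted p = 2.29e-09), rose by 1.37 ± 0.08 (adjusted p = 5.57e-07) to 10 h and had the smallest change of the group to 33 h (1.01 ± 0.07, adjusted p = 0.000112).

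Rfc2, Rfc3, Rfc4 and Rfc5, the small loader subunits, changed by 1.66, 1.42, 1.60 and 2.03 from 10 h to 33 h. Rfc2 and Rfc5 had been DE downwards from naive to 3 h (-1.16 ± 0.11, adjusted p = 5.75e-05 and -0.78 ± 0.12, adjusted p = 0.0421), and the latter call was lost with DESeq2 (adjusted p = 0.318) and without any one of 6 libraries. Dscc1 and Chtf18 belong to the alternative loader that acts in cohesion. Dscc1 was at 1.83 and 1.69 in naive cells, 0.554 and 1.15 after 3 h, and 3.43 and 1.92 after 10 h. Dscc1 then stood at 19.3 and 17.8 at 33 h, 11.3 and 10.6 in expanded cells and 8.43 and 7.24 in plasmablasts. It had the largest change of the group to 33 h (2.78 ± 0.24, adjusted p = 4.87e-06). Chtf18 was at 2.78 and 2.73 in naive cells, 1.01 and 1.30 after 3 h, and 6.26 and 5.16 after 10 h. Chtf18 then stood at 25.1 and 26.3 at 33 h, 12.7 and 12.4 in expanded cells and 11.3 and 11.6 in plasmablasts. It changed by -1.23 ± 0.15 (adjusted p = 0.0003) to 3 h, 2.28 ± 0.14 (adjusted p = 2.85e-07) to 10 h and 2.17 ± 0.12 (adjusted p = 9.38e-08) to 33 h. Exons of Rfc2, Rfc5, Rfc4 and Chtf18 share 19.1%, 15.4%, 13.4% and 12.3% of their bases with Lat2, Wsb2, Eif4a2 and Gng13 on the opposite strand.

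All 3 genes of Okazaki fragment maturation were DE upwards from 10 h to 33 h, by unlike amounts. Dna2, a nuclease for long flaps, was at 0.766 and 0.668 in naive cells, 0.284 and 0.0797 after 3 h, and 0.883 and 0.622 after 10 h. Dna2 then stood at 7.98 and 9.01 at 33 h, 10.1 and 9.92 in expanded cells and 5.60 and 5.83 in plasmablasts. It fell by 2.17 ± 0.36 to 3 h, the largest fall of the 48 genes, on 21 and 10 reads at 3 h (adjusted p = 0.000689), and rose by 2.25 ± 0.35 (adjusted p = 0.000697) to 10 h and by 3.48 ± 0.23 (adjusted p = 2.46e-07) to 33 h. Lig1, the ligase that seals the fragments, changed by 0.12 ± 0.11 (adjusted p = 1) from 3 h to 10 h and then by 2.95 ± 0.12 (adjusted p = 3.64e-09). Fen1, the flap nuclease, was at 26.6 and 26.3 in naive cells, 47.6 and 46.9 after 3 h, and 42.5 and 39.7 after 10 h. Fen1 then stood at 103 and 110.2 at 33 h, 109.9 and 112 in expanded cells and 155 and 149 in plasmablasts. It changed by 0.84 ± 0.08 (adjusted p = 0.00236) to 3 h, a call lost on library size alone (adjusted p = 0.233). The change to 33 h was 1.38 ± 0.08 (adjusted p = 7.34e-07). Fen1 shares 78.8% of its exon bases with Gm10143 on the opposite strand.

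RPA showed the smallest group median to 33 h. Rpa1, the main DNA-binding subunit, was at 83.4 and 77.2 in naive cells, 33.0 and 34.2 after 3 h, and 48.7 and 47.3 after 10 h. Rpa1 then stood at 122 and 131 at 33 h, 118 and 117 in expanded cells and 64.6 and 65.1 in plasmablasts. It fell by 1.26 ± 0.08 to 3 h (adjusted p = 8.13e-07), changed by 0.51 ± 0.08 (adjusted p = 0.9) to 10 h, rose by 1.40 ± 0.08 (adjusted p = 5.62e-07) to 33 h and fell by 0.86 ± 0.08 from expanded cells to plasmablasts (adjusted p = 0.0023). Rpa3, the smallest subunit, was at 12.0 and 12.9 in naive cells, 7.60 and 7.41 after 3 h, and 24.9 and 21.2 after 10 h. Rpa3 then stood at 41.5 and 48.4 at 33 h, 49.9 and 50.0 in expanded cells and 40.8 and 37.9 in plasmablasts. It rose by 1.62 ± 0.14 (adjusted p = 9.08e-06) to 10 h and by 0.96 ± 0.12 (adjusted p = 0.00773) to 33 h, the latter lost without the second 10 h library (0.85, adjusted p = 0.0985) or the second 33 h library (0.85, adjusted p = 0.0684). Rpa2 changed by 0.98 ± 0.09 (adjusted p = 0.0014) to 33 h.

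Fork protection held the gene with the largest change of all 48 from 10 h to 33 h. Clspn, which encodes the checkpoint adaptor claspin, was at 1.18 and 1.04 in naive cells, 0.616 and 0.468 after 3 h, and 2.27 and 1.54 after 10 h. Clspn then stood at 29.5 and 30.7 at 33 h, 26.6 and 26.3 in expanded cells and 16.0 and 15.8 in plasmablasts. All libraries up to 10 h were below 2.5 RPKM and both 33 h libraries were above 29, a change of 3.97 ± 0.16 (adjusted p = 3.49e-09). Timeless, a partner of TIPIN in the fork complex, was at 8.89 and 8.06 in naive cells, 4.63 and 4.79 after 3 h, and 13.0 and 10.9 after 10 h. Timeless then stood at 32.6 and 33.1 at 33 h, 22.2 and 22.1 in expanded cells and 15.6 and 16.4 in plasmablasts. It changed by -0.85 ± 0.10 (adjusted p = 0.00821) to 3 h, 1.34 ± 0.10 (adjusted p = 8.82e-06) to 10 h and 1.46 ± 0.10 (adjusted p = 2.96e-06) to 33 h. Wdhd1, the adaptor between helicase and polymerase alpha, changed by 2.05 ± 0.15 (adjusted p = 1.64e-06) at that last step, and Tipin went from 44.7 and 35.9 RPKM to 103 and 125. The falls of Clspn (-1.07 ± 0.20, adjusted p = 0.0103) and Timeless at 3 h were both lost without the first naive library, to an adjusted p of 0.0553 and 0.0599, and with DESeq2, to 0.0541 and 0.0583. That of Clspn was lost without the second 3 h library as well (adjusted p = 0.1).

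The change from 10 h to 33 h can be restated as the RPKM at 10 h in percent of that at 33 h. RPKM is scaled to each library, so these percents are not amounts per cell. The mean at 10 h was 32.5% of the mean at 33 h in the median of the 49 genes. Clspn was the lowest at 6.33%, followed by Dna2 at 8.86% and Cdc6 at 10.5%, and Gins4 was the highest at 73.3%, next to Pold2 at 68.6% and Cdt1 at 63.5%. Group medians were 13.0% for Okazaki maturation, 22.5% for licensing, 24.8% for helicase activation, 29.7% for fork protection, 32.3% for clamp and loader, 32.8% for the MCM genes, 35.9% for the polymerases and 50.8% for RPA. Naive cells held a median of 14.4% of the 33 h level, from 2.19% for Mcm10 to 75.1% for Cdt1.

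**Figure D4:**
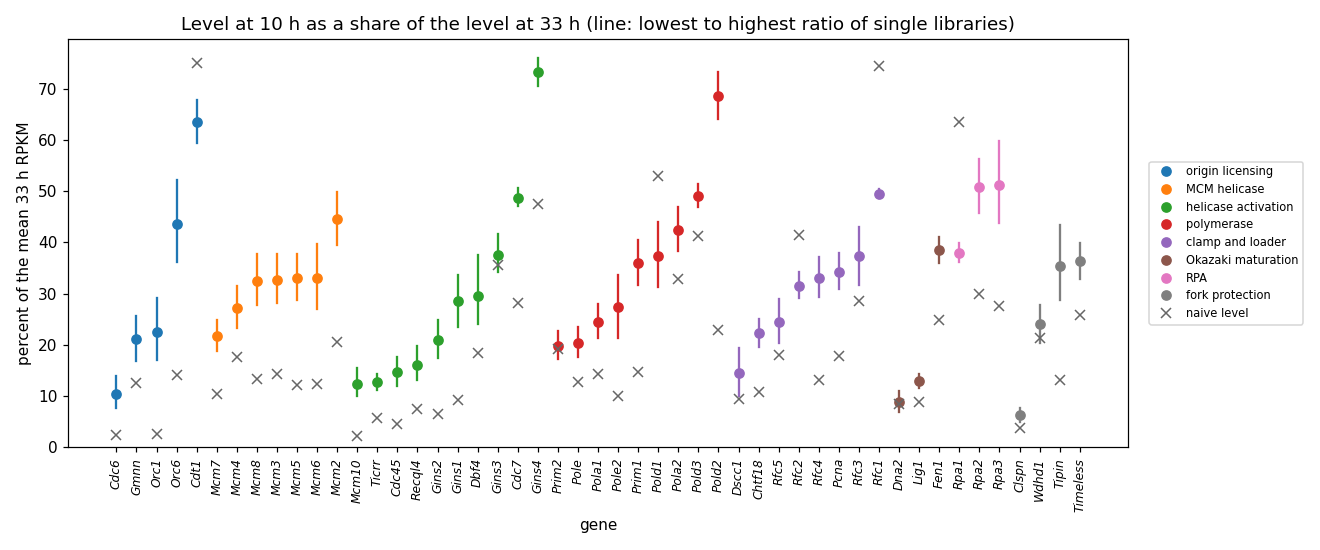
Mean RPKM at 10 h as a percent of the mean at 33 h for each of the 49 genes, colored by functional group, with a line from the lowest to the highest ratio of single libraries and a cross for the naive level. Values run from 6.33% for Clspn to 73.3% for Gins4, and the crosses of Cdt1, Pold1, Rfc1, Rfc2 and Rpa1 lie above their points.

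The genes did not move as a block in the first 3 h, and most rose from 3 h to 10 h. From naive cells to 3 h, 8 of 48 were DE upwards (21.0% of all genes) and 11 downwards (24.3% of all genes), shares of 16.7% and 22.9% that were near the background, with a median of -0.17 against -0.03 for all genes. The 8 were Orc1, Cdt1, Mcm3, Mcm5, Dbf4, Pold2, Pcna and Fen1. The 11 were Gmnn, Gins2, Pold1, Rfc1, Rfc2, Rfc5, Chtf18, Dna2, Rpa1, Timeless and Clspn, and all 11 were DE upwards from 10 h to 33 h. Of the 19 calls, 12 held without any one library, and the counts were 5 upwards on library size alone and 6 downwards with DESeq2. For a change of any size (glmQLFTest), 15 genes rose (34.6% of all genes) and 20 fell (36.3%). From 3 h to 10 h, 27 were DE upwards (17.4% of all genes) and Cdt1 alone downwards (13.4%), with a median of 0.98 against 0.02. Of these 28 calls, 22 held without any one library, and glmQLFTest gave 39 upwards (32.1% of all genes) and 4 downwards (30.2%). Licensing gave 4 of 5 genes DE upwards, helicase activation 7 of 10, clamp and loader 6 of 8 and fork protection 3 of 4. Fewer came from the MCM genes (3 of 7), polymerases (2 of 8), Okazaki maturation (1 of 3) and RPA (1 of 3). These counts include Orc6, Mcm6, Mcm8, Ticrr, Rfc3 and Dscc1, whose calls were lost without the first 10 h library. Their changes without it were 0.82, 0.74, 0.87, 0.74, 0.71 and 1.08. For 23 of the 49 genes both 3 h libraries lay below all 10 others. The share over all tested genes was not counted, so no excess over other genes is read from it.

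After the first division few genes were DE. From 33 h to expanded cells no gene was DE upwards (7.00% of all genes), at an unadjusted p of 0.05 as well, and glmQLFTest gave 1 (18.5% of all genes). No fitted rise exceeded 1.5-fold, so glmTreat could call none. The 3 genes DE downwards (3.67% of all genes) were Pold1, Chtf18 (-1.04 ± 0.11, adjusted p = 0.00267) and Pold3. The median change was -0.33, against -0.02 for all genes, and 29 of 48 genes fell by glmQLFTest, against 21.3% of all genes. Without a filter on low counts 6 genes were DE downwards, and so were 630 of all 17112 genes. The largest positive values were those of Dbf4 (0.58 ± 0.18, adjusted p = 0.907), Dna2 (0.24 ± 0.19, adjusted p = 1) and Rpa3 (0.15 ± 0.12, adjusted p = 1), none of which was DE. Expanded cells held a median of 79.5% of the 33 h level.

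From expanded cells to plasmablasts 1 of 48 genes was DE upwards (14.0% of all genes) and 3 downwards (12.2% of all genes). These were Cdt1 upwards and Orc6, Pold1 and Rpa1 downwards. The median was -0.32, against -0.05 for all genes, and 25 of 48 genes fell by glmQLFTest, against 29.7% of all genes, and 2 rose (27.3%). On library size alone the counts were 0 upwards and 19 downwards, with a median of -0.66 against -0.38 for all genes. Of all 12767 tested genes, 1189 were DE upwards and 2961 downwards under that scaling. After Cdt1 the largest positive values were those of Fen1 (0.45 ± 0.08, adjusted p = 1) and Gins1 (0.20 ± 0.18, adjusted p = 1). Plasmablasts held a median of 59.8% of the 33 h level, from 22.7% for Pold1 to 149% for Dbf4, with Cdc6 at 95.8% and Cdc45 at 90.6%.

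Over the whole course from naive cells to plasmablasts, 42 of 48 genes were DE upwards (26.6% of all genes) and Pold1 downwards (23.4% of all genes), with a median of 1.92 against 0.02. Cdc6, Mcm10 and Orc1 had the largest changes, at 5.40, 4.73 and 4.40. Cdt1, Pold3, Rfc1, Rfc2 and Rpa1 were not DE, with 0.69, -0.25, -0.60, 0.39 and -0.31. All 43 calls held without any one library, and 40 held under every alternative. Gins4, Rfc3 and Timeless lost theirs on library size alone (adjusted p = 0.0763, 0.0851 and 0.231), where 2 genes were DE downwards. Of all 12767 tested genes, 3886 were DE downwards there. By glmQLFTest 44 rose (38.2% of all genes) and 4 fell (35.9%).

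Replication genes outside the 49 had lower median changes from 3 h to 10 h and from 10 h to 33 h, and higher ones at the other steps between neighbouring stages. Of 39 tested, 16 were DE upwards from 10 h to 33 h (10.1% of all genes) and none downwards (4.45%), with a median of 0.45. From 3 h to 10 h, 13 were DE upwards (17.4% of all genes) and 1 downwards (13.4%), with a median of 0.33. From naive cells to 3 h, 11 were DE upwards (21.0% of all genes) and 8 downwards (24.3%), with a median of 0.18. These shares of 28.2% and 20.5% were near the background. From 33 h to expanded cells the counts were 1 and 1 (7.00% and 3.67% of all genes, median -0.21). From expanded cells to plasmablasts they were 0 and 7 (14.0% and 12.2% of all genes, median -0.27). From 10 h to 33 h none fell at an unadjusted p of 0.05 by glmTreat, as no fitted fall exceeded 1.5-fold. By glmQLFTest 2 of the 39 fell (22.1% of all genes). Ccna2, which encodes cyclin A2, had the largest change (4.50 ± 0.20, adjusted p = 1.74e-08), from 5.83 and 4.11 RPKM at 10 h to 93.5 and 132 at 33 h. Pole4, a histone-fold subunit of polymerase epsilon, had the smallest (-0.43 ± 0.10, adjusted p = 1), at 96.5 and 90.4 RPKM at 10 h and 70.3 and 68.3 at 33 h.

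The other subunits of the origin recognition complex did not follow Orc1 and Orc6 from 10 h to 33 h. None of Orc2 to Orc5 was DE from 10 h to 33 h, at 0.45, 0.24, -0.04 and -0.19. None passed glmTreat at an unadjusted p of 0.05, which changes within 1.5-fold could not do, and glmQLFTest gave Orc2 alone, upwards. From expanded cells to plasmablasts 1 of these 4 genes was DE downwards (12.2% of all genes), as was Orc6. All 4 fell by glmQLFTest there (29.7% of all genes). Orc2 was at 12.6 and 12.7 in naive cells, 32.2 and 31.4 after 3 h, and 32.1 and 30.5 after 10 h. Orc2 then stood at 39.0 and 46.6 at 33 h, 36.4 and 35.4 in expanded cells and 18.9 and 19.7 in plasmablasts. It rose within 3 h (1.33 ± 0.10, adjusted p = 1.98e-06), and Orc4 did so by 0.77 ± 0.12 (adjusted p = 0.0464). Orc3 was at 11.2 and 11.0 in naive cells, 10.3 and 14.8 after 3 h, and 16.5 and 15.2 after 10 h. Orc3 then stood at 17.9 and 19.7 at 33 h, 15.6 and 14.4 in expanded cells and 10.3 and 11.3 in plasmablasts. It had no DE call at any transition.

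Orc4 was at 4.15 and 4.14 in naive cells, 7.75 and 6.41 after 3 h, and 8.04 and 7.00 after 10 h. Orc4 then stood at 6.95 and 7.65 at 33 h, 6.51 and 6.57 in expanded cells and 5.18 and 5.45 in plasmablasts. Its mean was the lowest of the complex from 33 h on. Orc5 was at 10.5 and 13.0 in naive cells, 2.84 and 3.99 after 3 h, and 13.5 and 13.3 after 10 h. Orc5 then stood at 11.6 and 12.0 at 33 h, 14.8 and 12.7 in expanded cells and 11.2 and 9.34 in plasmablasts. It fell by 1.76 ± 0.17 to 3 h (adjusted p = 9.98e-06) and returned by 10 h (1.95 ± 0.17, adjusted p = 6.56e-06), with both 3 h libraries below the rest. The ratio of the highest to the lowest mean RPKM among the 6 subunits was 28.6 in naive cells and 35.8 after 3 h, where Orc1 was the lowest, and 8.03 after 10 h. It was 6.60 at 33 h, then 6.50 in expanded cells and 3.84 in plasmablasts.

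**Figure D5:**
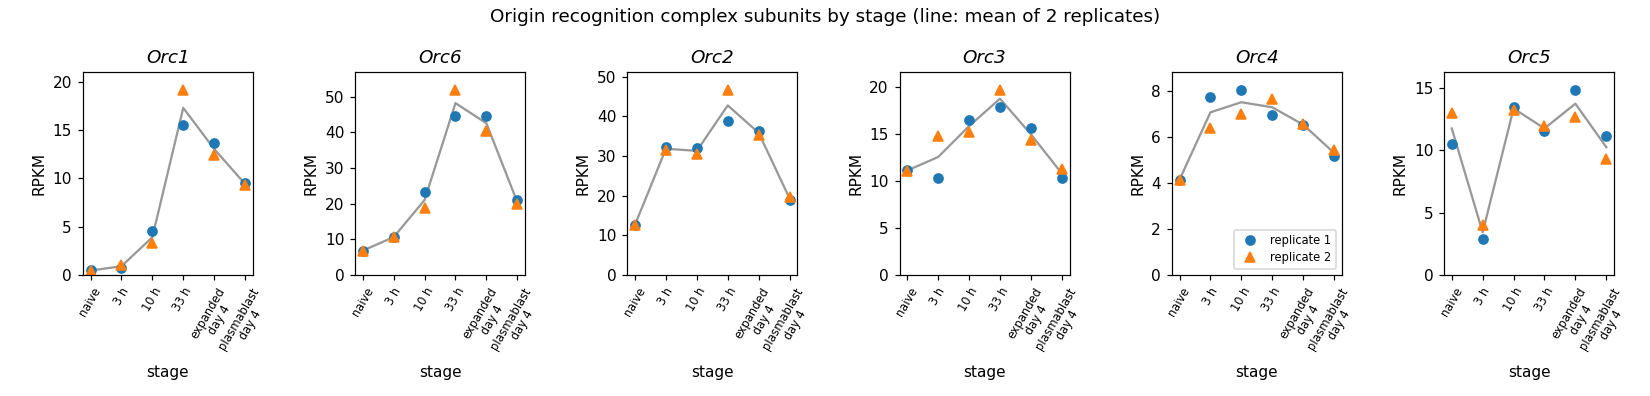
RPKM of the 6 origin recognition complex subunits at the 6 stages, with a point for each replicate and a line through the means. Orc1 and Orc6 rise from 10 h to 33 h, Orc2 has risen by 3 h, and Orc5 dips to 2.84 and 3.99 RPKM at 3 h.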

How the data were processed

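RNA-seq of 12 libraries of mouse splenic B cells (6 stages, 2 replicates each) was used. The authors made polyA libraries with the TruSeq RNA kit, called bases with CASAVA 1.8.2 per the labels, aligned reads to mm10 (GRCm38) with Rsubread and assigned them to Entrez genes with featureCounts. The deposited values are raw counts per gene, not normalized, with gene lengths. The single files of the 12 libraries were identical to the table of the series.

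Following the study's methods, 1904 unmatched identifiers and mitochondrial, rRNA, sex-linked and variable immunoglobulin genes were removed, and 12767 of the 23722 remaining genes passed filterByExpr. TMM factors, glmQLFit (robust) in a one-way layout of all 12 libraries and glmTreat against 1.5-fold were run with edgeR 4.0.16 in R 4.3.3, with Benjamini-Hochberg adjustment over all tested genes at 0.05. glmQLFTest was used for changes of any size, and DESeq2 1.42.0 (Wald test) as an alternative. The code was tested on simulated data. SEs were taken as the log2 fold change over the square root of F. RPKM were derived from those counts and lengths. The alternatives were other scalings, filters, dispersion settings and sets of libraries, and each library left out in turn. Depth was 23026619 to 60585587 counts, so that 3 counts were 0.0495 to 0.130 CPM, which covers counting error only. Replicates were called biological by the study, but their separate origin is not in the labels, and p-values measure the spread between these libraries. For a single value, 2 against 2 libraries allow no permutation p below 0.333.

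The 49 genes, their groups and the marker lists were chosen with earlier results of these data known. A sorting and B-cell marker is not reported here. Named are the licensing and MCM2-7 genes, Cdc45, Pcna and Pola1, the largest and smallest change of each group from 10 h to 33 h, the 3 largest rises and falls at other transitions, and calls that run against the rest. Promoters and gene positions came from RefSeq (GRCm38.p6) and exon overlaps from GENCODE vM21. The counts used the inbuilt Entrez annotation of Rsubread, so overlaps at the counting step may differ from those given.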

Additional observations from a re-analysis of the deposited data

How the results depend on the processing

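From 10 h to 33 h, 0 genes were called downwards under every alternative. Upwards, 45 were called under the other scalings, filters, dispersion settings and DESeq2, 46 with sex-linked genes kept (Pola1 added), 48 with no fold threshold, and 44 to 45 with 1 library left out. The directions of all medians over the genes held under every alternative.

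The scaling mattered at other steps. Library size alone in place of TMM placed the median of all tested genes at -0.24 from naive to 3 h, 0.35 from 3 h to 10 h, -0.38 from expanded cells to plasmablasts and -0.26 from naive cells to plasmablasts, against -0.03, 0.02, -0.05 and 0.02 with TMM. Under it 5 genes rose from naive to 3 h with a median of -0.37 (2092 of all 12767 genes rose). The median from 3 h to 10 h was 1.31. From expanded cells to plasmablasts 0 rose and 19 fell with a median of -0.66 (1189 and 2961 of all genes). From naive cells to plasmablasts 2 fell with a median of 1.64 (3886 of all genes). With DESeq2, 6 fell from naive to 3 h (2415 of all 12767 genes) and 0 rose from expanded cells to plasmablasts (1347). Without a filter on low counts, 6 fell from 33 h to expanded cells (630 of all 17112 genes). From expanded cells to plasmablasts 0 rose (1745) and 5 fell (1686) without that filter. At that step 9 fell in a fit of those 4 libraries alone (1745 of all 11933 genes). With no fold threshold (glmQLFTest), 15 rose and 20 fell from naive to 3 h, 4 fell from 3 h to 10 h, 1 rose and 29 fell from 33 h to expanded cells, 2 rose and 25 fell from expanded cells to plasmablasts, and 4 fell from naive cells to plasmablasts. The cause of these shifts was not tested.

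With each library left out in turn, 7 to 8 genes rose and 7 to 12 fell from naive to 3 h (7 falls without the first naive library). From 3 h to 10 h, 21 to 31 rose and 1 to 2 fell (2 without the second 3 h library). From 33 h to expanded cells 2 to 7 fell (7 without the second 3 h library), and from expanded cells to plasmablasts 0 to 1 rose and 2 to 6 fell (6 without either 3 h library). The median level at 10 h was 29.1% to 34.5% of that at 33 h. The lone library left in a stage was assumed to vary like the other stages.

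Same-numbered libraries were not treated as pairs. Over 15 pairs of stages the correlation of same-numbered deviations ran from -0.32 to 0.33 and was above 0.1 in 2. The highest was that of expanded cells with plasmablasts, both harvested on day 4. With the replicate number as a block, 45 genes rose from 10 h to 33 h with a median of 1.62, and the counts at the other steps did not change.

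Over single genes and settings, 6380 values kept their call, 79 lost it and 165 gained it. No called change reversed, and 55 values over 24 changes that were not called changed sign. The lowest counts were those of Dna2 and Dscc1 at 3 h.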
